A study of Homo sapiens with 4 samples.

Results

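Growth factor receptor kinases are described here through their noncoding transcripts. The set holds 10 genes, *EGFR*, *ERBB2*, *ERBB3*, *MET*, *AXL*, *IGF1R*, *FGFR1*, *FGFR2*, *FGFR3* and *FGFR4*. Its members were all transcripts of the deposited table whose identifier belongs to one of these genes in GENCODE release 29, which gave 69 of 106179 transcripts. They were chosen by gene name with no threshold on any value, but by a choice of genes made with the counts and fold changes of these same libraries in view, so the values below are a description and support nothing on their own. The study compared cells labelled HepG2 that are resistant to oxaliplatin, a platinum compound that forms adducts on DNA, with wild-type HepG2 cells, and asked which long noncoding RNAs differ. HepG2 is an established human line, given in the labels as hepatocellular carcinoma. Total RNA gave 2 libraries of resistant cells and 2 of wild-type cells, all grown in DMEM with serum, with no further treatment stated. The sources used here do not give the dose or length of the selection, or whether the resistant line is 1 clone. Nor is it stated that the 2 libraries of a group are separate cultures; the p-values below rest on the spread between libraries alone, which could be technical.

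Receptor tyrosine kinases span the plasma membrane, bind a growth factor outside the cell and phosphorylate each other and their adaptors inside it. The main routes downstream are the RAS-MAPK and PI3K-AKT pathways, which carry signals for growth and survival. EGFR, ERBB2 and ERBB3 belong to the ErbB family, in which ERBB2 has no known ligand of its own and ERBB3 has little kinase activity, so both act in pairs with other members. MET is the receptor of hepatocyte growth factor, AXL that of GAS6, IGF1R that of the insulin-like growth factors, and the FGFR genes encode receptors of fibroblast growth factors, of which FGFR4 is the main one in hepatocytes. The counts below are those assigned to noncoding transcripts of these genes, many of which share exons with the mRNAs that encode the proteins. GENCODE classes 41 of the 69 transcripts as retained introns, in which an intron of the gene is kept, and 28 as processed transcripts, which are spliced and have no open reading frame assigned.

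The resistant libraries held 43473826 and 44063444 counts in all, and the wild-type libraries 38113398 and 34898860. Transcripts of the 10 genes took 0.321% and 0.249% of the counts in the resistant libraries and 0.280% and 0.239% in the wild-type ones. Of the 69 transcripts, 37 had a count in every library, 19 in some libraries and 13 in none. The labelled cell type was checked against 20 hepatocyte markers, of which 14 had a noncoding transcript in the table. Of these, 10 were at 0 in all libraries, *AFP*, *SERPINA1*, *TF* and *TTR* among them. The summed level of the list was 0.266 and 2.13 CPM (counts scaled to library size, with factors given below) in the resistant libraries and 0.609 and 0.404 CPM in the wild-type ones. In the epithelial list *KRT8* and *KRT18* carried the counts while *CDH1*, *EPCAM* and *KRT19* were at 0, and the list summed to 234.7 and 198.9 CPM in resistant cells and 334.7 and 591.8 CPM in wild type. Markers of fibroblasts and mesenchymal cells summed to 205.5 and 177.8 CPM against 215.0 and 251.1 CPM, mostly from *VIM* and *FN1*. Endothelial and leukocyte markers were at most 0.719 CPM in every library. These are noncoding transcripts of the marker genes, so the check is not one of their mRNA levels, and the part of cell identity in the receptor values was not tested.

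How far such a transcript can be told apart from the mRNAs of its gene depends on its structure. Each was therefore compared with the exons of the coding transcripts of the same gene, here those classed as protein coding or as targets of nonsense-mediated or non-stop decay. The median member had 25.6% of its bases outside those exons. In *EGFR* whole last exons lie outside them. Its transcripts EGFR-209 and EGFR-208 both begin in the first exon of the *EGFR* mRNA and then splice to a last exon of their own, of 346 and 217 bases. EGFR-210 runs from coding exons into an intron for 389 bases. At the other end, ERBB3-205 has 644 of its 660 bases in coding exons and 16 outside, and IGF1R-210 has 2201 of 2280 in coding exons and 79 outside. All 720 bases of FGFR4-210 lie in coding exons. The stretches below show, 5′ to 3′, where a transcript leaves or joins the coding exons, since the bases in capitals are ones that the annotated coding transcripts lack. They come from the GENCODE release 29 transcript sequences, whose build is GRCh38, all are on the plus strand, and capitals mark bases outside every coding exon of the gene.
EGFR-209 (ENST00000463948, capitals at chr7:55119056-55119115): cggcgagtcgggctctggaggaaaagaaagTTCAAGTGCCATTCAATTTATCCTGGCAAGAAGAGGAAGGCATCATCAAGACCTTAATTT
EGFR-208 (ENST00000459688, capitals at chr7:55043833-55043892): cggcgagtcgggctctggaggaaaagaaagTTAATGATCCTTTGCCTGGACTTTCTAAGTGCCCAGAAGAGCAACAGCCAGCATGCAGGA
EGFR-210 (ENST00000485503, capitals at chr7:55200414-55200473): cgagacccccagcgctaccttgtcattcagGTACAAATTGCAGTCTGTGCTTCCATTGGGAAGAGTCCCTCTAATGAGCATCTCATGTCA
ERBB2-214 (ENST00000583038, capitals at chr17:39715940-39715999): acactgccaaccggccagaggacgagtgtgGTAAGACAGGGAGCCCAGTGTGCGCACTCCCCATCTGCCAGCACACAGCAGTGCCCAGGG
ERBB3-205 (ENST00000546884, capitals at chr12:56086657-56086672): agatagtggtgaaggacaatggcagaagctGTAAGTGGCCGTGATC
MET-207 (ENST00000495962, capitals at chr7:116724788-116724847): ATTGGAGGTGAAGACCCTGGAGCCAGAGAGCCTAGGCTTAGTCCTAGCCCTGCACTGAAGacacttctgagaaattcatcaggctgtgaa
AXL-205 (ENST00000599659, capitals at chr19:41243708-41243767): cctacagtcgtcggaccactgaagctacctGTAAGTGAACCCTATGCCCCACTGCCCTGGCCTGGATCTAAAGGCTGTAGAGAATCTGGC
IGF1R-210 (ENST00000559925, capitals at chr15:98916877-98916936): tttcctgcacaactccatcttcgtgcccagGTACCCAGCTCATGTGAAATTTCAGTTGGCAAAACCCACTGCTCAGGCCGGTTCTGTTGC
IGF1R-202 (ENST00000557873, capitals at chr15:98873796-98873855): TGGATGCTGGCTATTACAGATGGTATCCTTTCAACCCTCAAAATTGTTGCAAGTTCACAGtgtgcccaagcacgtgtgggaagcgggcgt
FGFR4-211 (ENST00000509511, capitals at chr5:177092785-177092844): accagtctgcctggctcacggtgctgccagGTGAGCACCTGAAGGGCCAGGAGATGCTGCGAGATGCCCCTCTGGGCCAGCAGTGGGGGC
The lower-case bases of EGFR-209 and EGFR-208 are the same, the end of the shared first exon, and the capitals differ. In EGFR-210, ERBB2-214, ERBB3-205, AXL-205, IGF1R-210 and FGFR4-211 the border lies inside one exon of the transcript, which reads on from a coding exon into the intron. For ERBB3-205 the capitals are all of its bases outside the coding exons. MET-207 and IGF1R-202 instead start outside the coding exons and splice into them. The sources used here do not say how the authors' counting divided reads between these transcripts and mRNAs, and its part in the values was not tested.

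**Figure D1:**
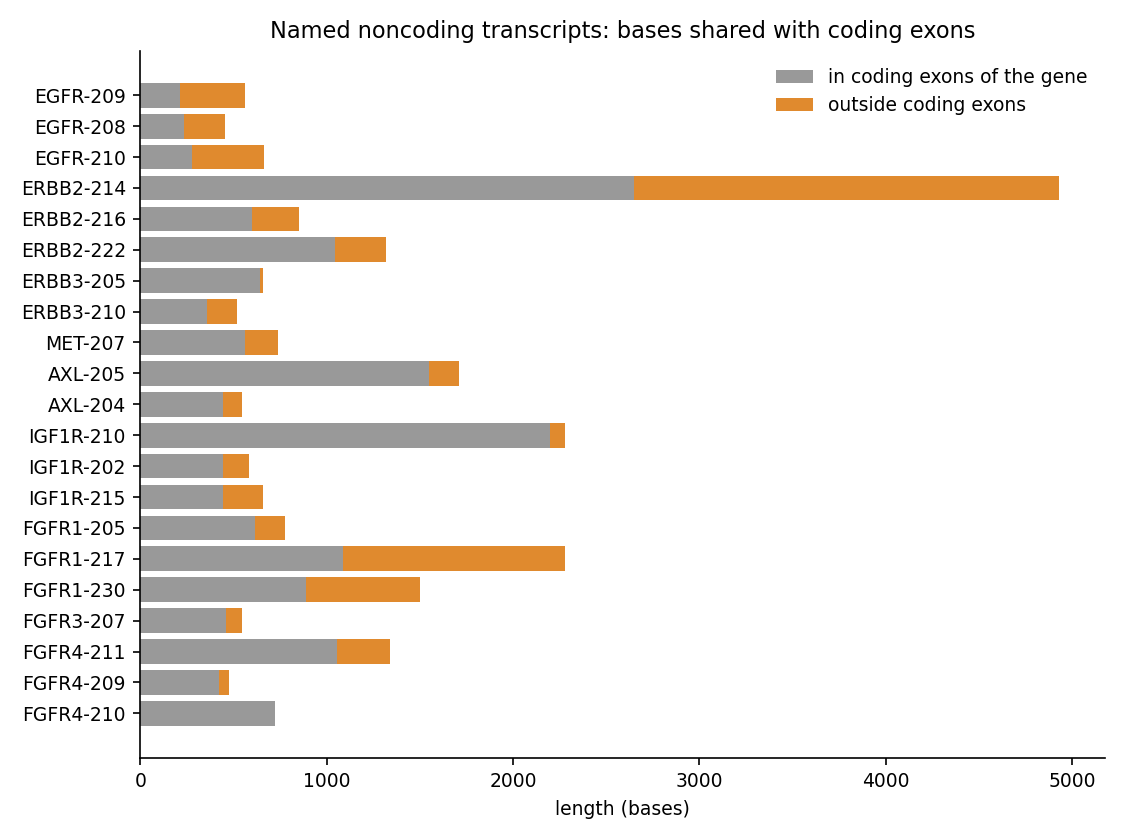
Length in bases of each named noncoding transcript (rows), split into bases that lie in coding exons of the same gene (grey) and bases outside them (orange). ERBB3-205 has 16 orange bases of 660 and IGF1R-210 has 79 of 2280, whereas EGFR-209 has 346 of 561.

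Levels were read on sums over the noncoding transcripts of each gene, scaled to CPM by library size with trimmed mean of M-values (TMM) factors. *EGFR* held most of the counts of the set, 118488 and 90661 in resistant cells against 82319 and 65580 in wild type. To set genes beside each other, CPM was divided by transcript length and summed. On this scale *EGFR* stood at 5261 ± 873 CPM per kilobase in resistant cells and 4855 ± 510 in wild type (SD, n = 2 libraries each, as throughout), the 10th highest of the 13745 tested genes. *IGF1R* followed with 363.7 ± 25.9 and 521.5 ± 47.4 CPM per kilobase and *AXL* with 104.7 ± 25.2 and 99.9 ± 23.4. *FGFR1*, with 49.7 and 24.2 CPM per kilobase in the resistant libraries and 27.1 and 46.5 in wild type, and *MET*, at 26.8 ± 0.629 and 18.9 ± 10.8, overlapped in their libraries. *ERBB2* came next with 12.1 ± 0.279 CPM per kilobase in resistant cells and 11.1 ± 0.582 in wild type. *FGFR4* had 5.51 ± 0.452 and 10.1 ± 2.08, and in wild type it did not stand apart from *ERBB3*, at 9.80 ± 0.378. In resistant cells *ERBB3* was at 0.581 ± 0.0573 CPM per kilobase, below *FGFR3*, which had 1.77 ± 1.18 and 1.67 ± 1.07. All 5 noncoding transcripts of *FGFR2* were at 0 in all libraries, which allows up to 3 counts in each, or 0.0798 to 0.110 CPM, for counting error only.

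**Figure D2:**
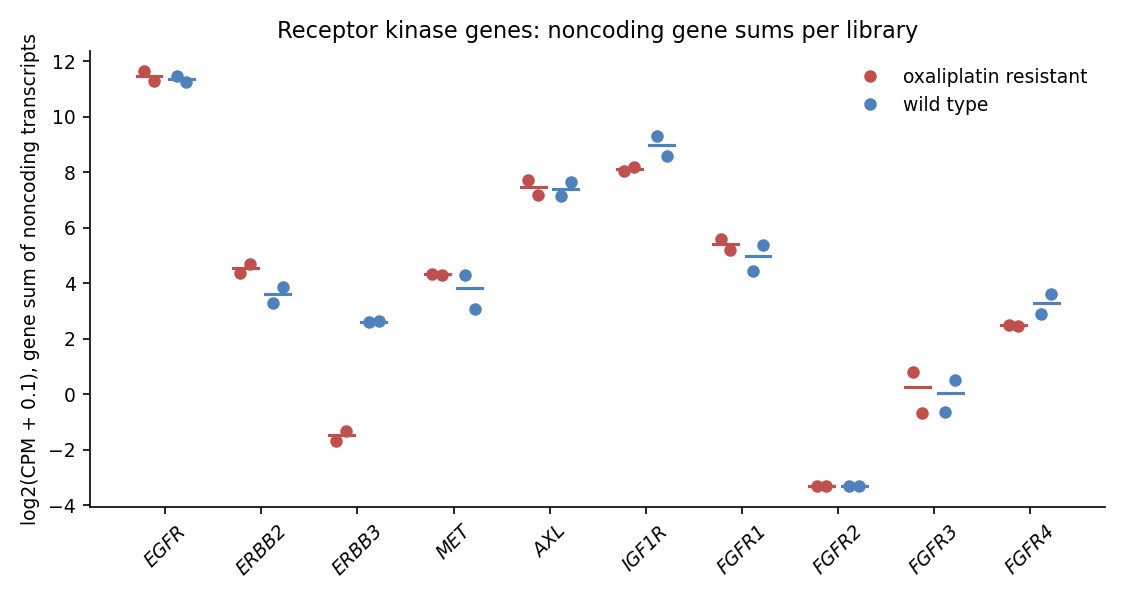
Level of each receptor gene as log2(CPM + 0.1) of the sum of its noncoding transcripts (vertical axis), with each library as a point and the group mean as a line, resistant left and wild type right. The points of *ERBB3* lie far apart between groups, at 0.213 and 0.301 CPM in resistant cells and 5.95 and 6.10 CPM in wild type, and *FGFR2* lies on the floor set by a count of 0.

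Resistant and wild-type cells were compared with the edgeR quasi-likelihood test over all 13745 gene sums and all 42393 transcripts that passed its expression filter, with Benjamini-Hochberg adjustment over each whole table. Of the set, 9 gene sums and 37 transcripts were tested. No member passed an adjusted p of 0.05 at either level, where 0% of all genes and 0% of all transcripts did. The smallest adjusted p of a member gene was 0.323, for *ERBB3*, and the next was 0.640. At an unadjusted p under 0.05 the set had 1 of 9 gene sums, *ERBB3*, beside 8.67% of all genes, and 1 of 37 transcripts, ERBB3-205, beside 7.74% of all transcripts. Both were lower in resistant cells. Of all genes 4.74% were higher and 3.93% lower at that p, and of all transcripts 4.56% and 3.18%. The DESeq2 test, tried as an alternative, called the same *ERBB3* gene sum and transcript, against a background of 4.60% of genes and 5.33% of transcripts. Both had passed the expression filter through their wild-type counts, so these calls are no support. In CPM, the libraries of the groups did not overlap for 4 of the 9 gene sums, 1 higher in resistant cells (*ERBB2*) and 3 lower (*ERBB3*, *IGF1R*, *FGFR4*), beside 43.0% of all genes (22.5% higher, 20.5% lower). Among transcripts this held for 17 of 37, 6 higher and 11 lower, beside 40.3% of all (21.4% higher, 18.9% lower). The totals are near the background, while by direction the set held a larger share lower and a smaller share higher. As the genes were chosen with these values in view, this says nothing particular about receptor kinases. The median log2 fold change was 0.12 over the 9 gene sums and 0.01 over all genes tested. Over the 37 transcripts it had the other sign, -0.24, with 14 above 0 and 23 below, against 0.02 over all transcripts tested. Replicates of one group differed by a median ratio of 1.27 in resistant and 1.65 in wild-type cells over the 9 member gene sums, and by 1.40 and 1.45 over all genes above 0 in both replicates. In bulk RNA, fewer cells of a type and less RNA per cell cannot be told apart.

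*ERBB3*, the ErbB member that relays neuregulin signals through its partners, had the largest fitted difference of the 9 tested gene sums. Its noncoding transcripts had 8 and 11 counts in resistant cells against 176 and 166 in wild type. Both resistant libraries were low and both wild-type libraries were close to each other. The mean was 0.257 ± 0.0620 CPM in resistant cells and 6.02 ± 0.104 CPM in wild type, 23.5-fold lower, and the log2 fold change was -4.53 ± 0.53 (SE). It did not pass adjustment in edgeR (adjusted p = 0.323) and passed in DESeq2 (adjusted p = 4.30e-08). The gene sum passed the expression filter through its wild-type counts, so its p-values are a description and no support. Leaving out each library in turn gave log2 fold changes from -4.79 to -4.30, and the edgeR adjusted p stayed above 0.05 each time.

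A single retained-intron transcript carried most of the *ERBB3* counts. ERBB3-205 (ENST00000546884), which has 4 exons at chr12:56080204-56086672 on the plus strand, had 0 counts in both resistant libraries and 150 and 136 in the wild-type ones. In wild type it held 83.6% ± 2.33 of all *ERBB3* counts. With 3 counts per library as the limit of detection, it was at least 61.6-fold lower in resistant cells, where the mean was 0 CPM against 4.14 ± 0.0330 CPM in wild type (edgeR adjusted p = 0.329, DESeq2 adjusted p = 6.62e-07). That bound covers counting error only. ERBB3-205 passed the expression filter through its wild-type counts alone, so its p-values are a description and no support. The other *ERBB3* transcripts together had 8 and 11 counts in resistant cells against 26 and 30 in wild type, a mean 3.86-fold lower, without overlap. This split was made after the values were seen and is no further support. ERBB3-210 had 5 and 0 counts against 12 and 9. The other 7 were below the expression filter. Since 644 of the 660 bases of ERBB3-205 are in coding exons, its counts cannot be separated from the level of coding *ERBB3* transcripts, which the table does not hold. *AC034102.2*, a coding gene that overlaps *ERBB3* on the same strand, had no transcript in the table assigned to it.

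*ERBB2*, the preferred partner of the other ErbB receptors, had 763 and 944 counts in resistant cells against 285 and 392 in wild type. Both resistant libraries were above both wild-type ones. The mean was 23.1 ± 3.88 CPM in resistant cells and 12.0 ± 3.37 CPM in wild type, 1.92-fold higher (log2 fold change 0.94 ± 0.38 SE, edgeR adjusted p = 0.644). The difference lay in ERBB2-214 (ENST00000583038), a retained-intron transcript of 17 exons and 4930 bases at chr17:39707404-39726351. It had 404 and 738 counts in resistant cells against 44 and 180 in wild type, a mean 3.85-fold higher (log2 fold change 1.95 ± 0.97 SE, edgeR adjusted p = 0.847). The size rested on single libraries, since the log2 fold change was 1.24 without wild-type replicate 1, 3.39 without wild-type replicate 2, 2.33 without resistant replicate 1 and 1.41 without resistant replicate 2. The remaining *ERBB2* transcripts, split off after the values were seen, summed to 359 and 206 counts against 241 and 212, and in CPM these overlapped. ERBB2-216, which lies upstream at chr17:39688101-39695181, ran the other way, with 52 and 122 counts in resistant cells and 154 and 143 in wild type. Its share of the gene's counts was 9.87% ± 4.32 in resistant cells and 45.3% ± 12.4 in wild type, and that of ERBB2-214 was 65.6% ± 17.8 and 30.7% ± 21.6. ERBB2-222 had 217 and 14 counts in resistant cells and 24 and 1 in wild type, so 1 resistant library held nearly all of its counts.

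Because ERBB2-214 is much longer than the other *ERBB2* transcripts, the gene-level difference shrank once counts were divided by length. Per kilobase, the resistant libraries had 12.3 and 11.9 CPM and the wild-type libraries 10.7 and 11.5 CPM. A pair of genes on the other strand overlap *ERBB2*, and no source used here says that counting used strand. Their reads may therefore not have been told apart from those of *ERBB2* where they overlap. *PGAP3*, a gene of GPI anchor remodelling, had 635 and 380 counts in resistant cells against 141 and 227 in wild type (log2 fold change 1.06 ± 0.51 SE, edgeR adjusted p = 0.685). *MIEN1* had 103 and 167 against 28 and 125. The part of these genes in the *ERBB2* values was not tested.

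**Figure D3:**
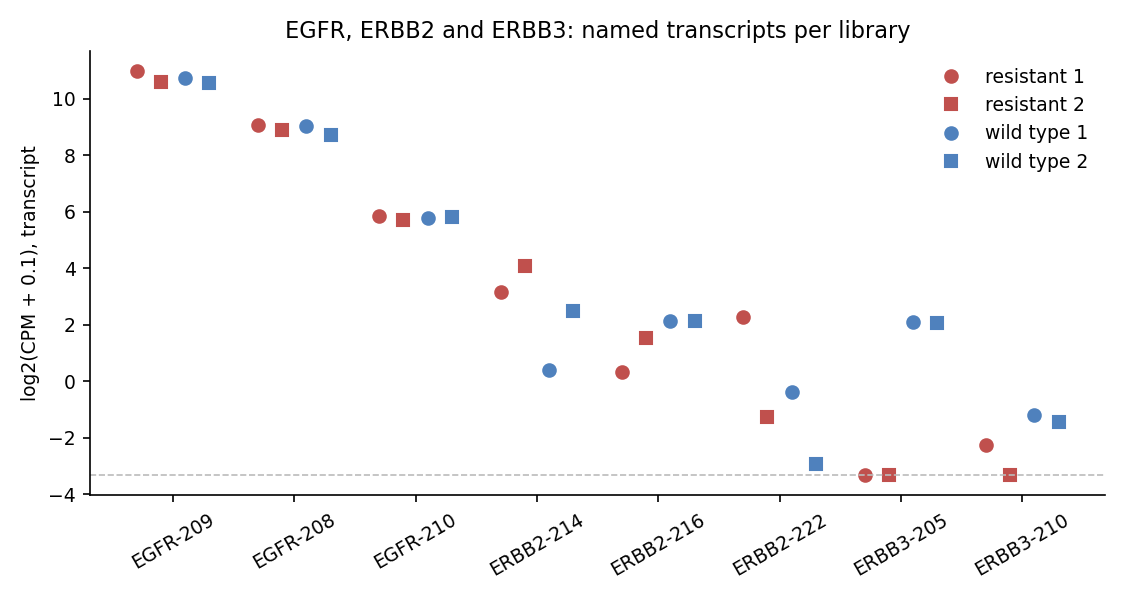
Level of the named *EGFR*, *ERBB2* and *ERBB3* transcripts as log2(CPM + 0.1) (vertical axis) in each resistant (red) and wild-type (blue) library, with the dashed line at a count of 0. ERBB3-205 lies on the dashed line in both resistant libraries and at 150 and 136 counts in wild type, while the *EGFR* transcripts lie level across libraries.

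*EGFR*, the receptor of EGF and TGF-alpha, had the most counts of the set and a fitted difference near 0. Its sum came to 2815 ± 478 CPM in resistant cells and 2596 ± 265 CPM in wild type, where the groups overlapped (log2 fold change 0.12 ± 0.24 SE, edgeR adjusted p = 0.934). EGFR-209 had 91636 and 67564 counts in resistant cells against 61642 and 49855 in wild type. EGFR-208 had 24223 and 20804 against 18714 and 13865, and EGFR-210 had 2629 and 2293 against 1963 and 1860. The division between them was steady. EGFR-209 held 75.9% ± 1.99 of the gene's counts in resistant cells and 75.5% ± 0.806 in wild type, and EGFR-208 held 21.7% ± 1.77 and 21.9% ± 1.13. These are the transcripts whose last exons lie outside the coding exons, with the first 60 bases of each printed above. The last exons lie at chr7:55119056-55119401 for EGFR-209 and at chr7:55043833-55044049 for EGFR-208. *EGFR-AS1*, on the other strand of the same locus, had 352 and 333 counts in resistant cells and 380 and 430 in wild type (log2 fold change -0.63 ± 0.33 SE, edgeR adjusted p = 0.699).

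*AXL*, the GAS6 receptor, had 7829 and 5277 counts in resistant cells against 4121 and 5391 in wild type. In CPM the groups overlapped, at 176.3 ± 45.3 in resistant cells and 168.7 ± 41.5 in wild type (log2 fold change 0.06 ± 0.35 SE, edgeR adjusted p = 0.974). AXL-205, a retained-intron transcript of 12 exons with 1551 of its 1708 bases in coding exons, held 99.2% ± 0.807 of the counts in resistant cells and 99.4% ± 0.572 in wild type. *MET*, the hepatocyte growth factor receptor gene, has 1 noncoding transcript in the table, MET-207, with 759 and 715 counts in resistant cells against 581 and 226 in wild type. On the transcript scale its libraries did not overlap between groups, at 16.7 and 16.3 CPM in resistant cells and 16.1 and 6.84 CPM in wild type. On the gene scale the same counts did overlap, at 20.2 and 19.5 CPM against 19.6 and 8.30 CPM. The 2 scales thus differ in this call through scaling alone. Wild-type replicate 2 was the low one. The mean was 19.9 ± 0.466 CPM in resistant cells and 14.0 ± 8.02 CPM in wild type (log2 fold change 0.51 ± 0.54 SE, edgeR adjusted p = 0.847), and without that replicate the log2 fold change was 0.02.

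*IGF1R*, which binds insulin-like growth factors, had 9752 and 10685 counts in resistant cells against 18529 and 10276 in wild type. In CPM both resistant libraries were below both wild-type ones, at 275.8 ± 23.0 in resistant cells and 502.0 ± 176 in wild type, 1.82-fold lower (log2 fold change -0.86 ± 0.35 SE, edgeR adjusted p = 0.640). Most of the gap lay in IGF1R-210 (ENST00000559925) in a single library. This transcript had 3276 and 3532 counts in resistant cells against 12410 and 3583 in wild type. The remaining 11 transcripts summed to 6476 and 7153 counts against 6119 and 6693, a mean 1.23-fold lower in CPM. In CPM this remainder did not overlap between groups either, in a split made after the values were seen. Without wild-type replicate 1 the log2 fold change was -0.45 for the gene and -0.51 for IGF1R-210. Within the gene the transcripts did not run together. IGF1R-202 had 1984 and 2895 counts in resistant cells against 989 and 1465 in wild type, while IGF1R-215, which overlaps it, had 1028 and 1184 against 1232 and 1610. The antisense gene *AC069029.1* had 1029 and 821 counts in resistant cells and 2020 and 1161 in wild type (log2 fold change -1.16 ± 0.38 SE, edgeR adjusted p = 0.547). Since use of strand in counting is not stated, its reads may not have been told apart from those of *IGF1R* where they overlap. *AC036108.1*, likewise antisense, had 978 and 2186 against 0 and 737.

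The fibroblast growth factor receptor genes were low apart from *FGFR1*. *FGFR1* had 1813 and 1325 counts in resistant cells against 635 and 1116 in wild type, and 42.2 ± 8.51 CPM against 31.2 ± 13.8 CPM overlapped between groups (log2 fold change 0.44 ± 0.46 SE, edgeR adjusted p = 0.846). Without wild-type replicate 1 the log2 fold change was 0.04, and without wild-type replicate 2 it was 0.97. The leading transcript differed between the resistant replicates. FGFR1-205 had 1068 and 113 counts in resistant cells and 512 and 807 in wild type, and FGFR1-217 had 162 and 892 against 0 and 114, so FGFR1-205 led in both wild-type libraries. FGFR1-230 had 223 and 174 against 0 and 136. Without FGFR1-205, the other 18 transcripts came to 745 and 1212 counts in resistant cells and 123 and 309 in wild type, so that the remainder was 3.41-fold higher and did not overlap. This split was made after the values were seen. *LETM2*, on the other strand, also varied within groups, with 1275 and 326 counts against 1241 and 101.

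*FGFR4*, which pairs with beta-klotho as the FGF19 receptor of the liver, had 209 and 197 counts in resistant cells against 217 and 330 in wild type. It stood at 5.47 ± 0.126 CPM in resistant cells and 9.73 ± 3.38 CPM in wild type, 1.78-fold lower (log2 fold change -0.83 ± 0.44 SE, edgeR adjusted p = 0.699), and the groups did not overlap. Without wild-type replicate 2 the log2 fold change was -0.42. FGFR4-211 held 73.4% ± 12.6 and 66.5% ± 16.5 of these counts. The smaller FGFR4-209 and FGFR4-210 had 20 and 28 against 42 and 31 counts, and 12 and 16 against 29 and 25. *FGFR3* had 62 and 19 counts in resistant cells and 16 and 36 in wild type, with FGFR3-207 at 36 and 18 against 12 and 36. In CPM both overlapped between groups, and no difference was detected (edgeR adjusted p = 0.966 for the gene). For *FGFR2* no fold can be given.

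**Figure D4:**
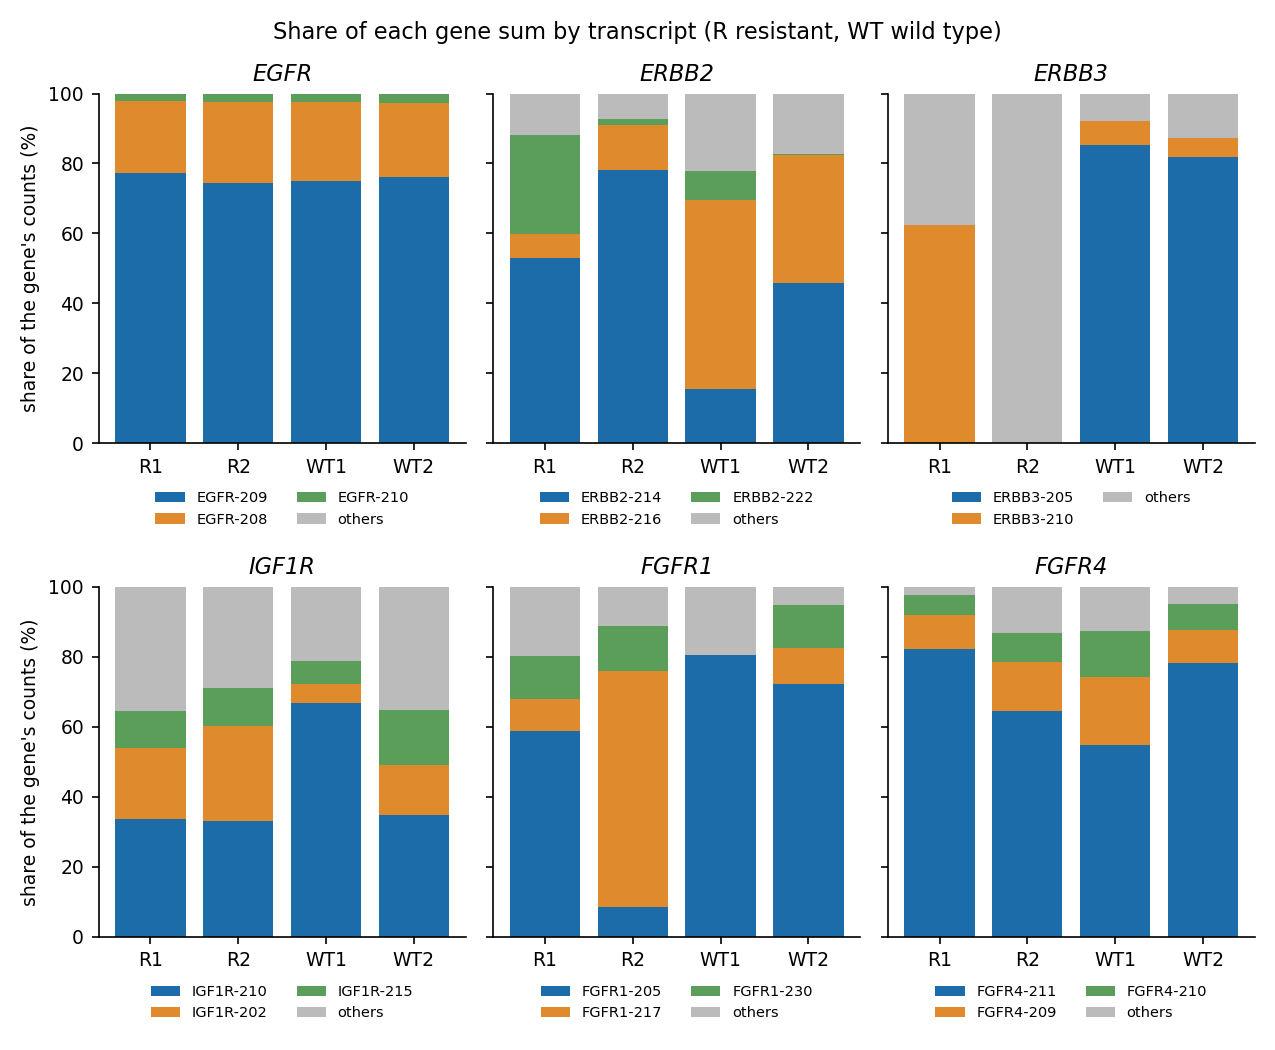
Share of each gene's noncoding counts (vertical axis, percent) held by its named transcripts and by the others together (grey) in each library, resistant left. EGFR-209 holds about the same share in all libraries, ERBB3-205 is absent from both resistant bars, and FGFR1-205 differs between the resistant replicates with 1068 and 113 counts.

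The pathway around these receptors was read from 7 lists, of 145 genes in all, of which 85 were tested as gene sums. None passed the edgeR test, where the lowest adjusted p was 0.323, and 7 of 85, or 8.24%, had an unadjusted p under 0.05, 3 higher and 4 lower, beside 8.67% of all genes. The median log2 fold change was -0.08 over the lists and 0.01 over all genes. Of the ErbB ligands, 6 were tested, 1 with a log2 fold change above 0 and 5 below. *EREG*, which encodes epiregulin, a ligand of EGFR, had 3047 and 3853 counts in resistant cells against 3393 and 2365 in wild type, and the groups overlapped. *NRG1*, which encodes a neuregulin that binds ERBB3, had 995 and 364 counts against 1535 and 1561, at 18.2 ± 11.7 CPM in resistant cells and 54.6 ± 3.84 CPM in wild type (edgeR adjusted p = 0.608). *TGFA*, the gene of an EGFR ligand, was singled out after its values were seen, as the one ErbB ligand with an unadjusted p under 0.05. It had 325 and 184 counts in resistant cells and 0 in both wild-type libraries, and passed the expression filter through the resistant ones alone. Against 3 counts per library it was at least 64.6-fold higher, for counting error only (edgeR adjusted p = 0.323).

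Among the other ligands, 3 were tested, 1 with a log2 fold change above 0 and 2 below. The groups did not overlap for 1 higher and 2 lower. *GAS6*, the AXL ligand, had 158 and 179 counts in resistant cells against 388 and 549 in wild type, a mean of 4.55 ± 0.486 CPM against 16.6 ± 4.98 CPM, 3.66-fold lower (log2 fold change -1.87 ± 0.41 SE, edgeR adjusted p = 0.393). *PROS1*, which encodes protein S, a ligand of AXL's relatives TYRO3 and MERTK, had 264 and 149 against 344 and 404 counts and was 2.39-fold lower in mean CPM (edgeR adjusted p = 0.601). For both, the groups did not overlap. *HGF*, *IGF1* and *IGF2* were at 0 in all libraries. Of 16 tested other receptor tyrosine kinases, 7 had a log2 fold change above 0 and 9 below. *ROR2* had 29050 and 18325 counts in resistant cells against 7109 and 52963 in wild type. The spread within wild type was wider than the gap between the group means. *RYK* had 18560 and 16807 counts in resistant cells against 13153 and 12391 in wild type. In CPM it stood at 476.6 ± 24.5 against 450.0 ± 7.35, 1.06-fold higher without overlap (edgeR adjusted p = 0.949).

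Downstream, the 18 tested adaptor and RAS-MAPK genes divided into 8 with a log2 fold change above 0 and 10 below. *BRAF*, a kinase below RAS, had 885.3 ± 289 CPM in resistant cells and 650.0 ± 163 CPM in wild type, and *MAP2K2*, the next kinase in the chain, had 640.6 ± 221 and 747.9 ± 75.8 CPM. Both overlapped between groups. Of the 17 tested PI3K-AKT genes, 12 were above 0 and 5 below. *RICTOR*, a subunit of mTOR complex 2, had 691.0 ± 177 CPM in resistant cells and 484.1 ± 90.6 CPM in wild type, and *AKT2* had 314.9 ± 0.119 and 385.1 ± 87.8 CPM. Neither overlapped between groups and neither passed the test. Of 20 tested inhibitors and turnover genes, 9 were above 0 and 11 below. *NF1*, which switches RAS off, had 7529 and 38876 counts in resistant cells against 42082 and 8082 in wild type. *NEDD4L*, a ubiquitin ligase gene, had 293.1 ± 37.6 CPM against 574.6 ± 157 CPM (edgeR adjusted p = 0.538). In the list of 5 tested co-receptors and cofactors, the sheddase genes *ADAM17* and *ADAM10*, which release ErbB ligands and receptor ectodomains, had 198.8 ± 42.3 against 189.7 ± 26.1 CPM and 68.4 ± 16.4 against 193.7 ± 175 CPM.

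**Figure D5:**
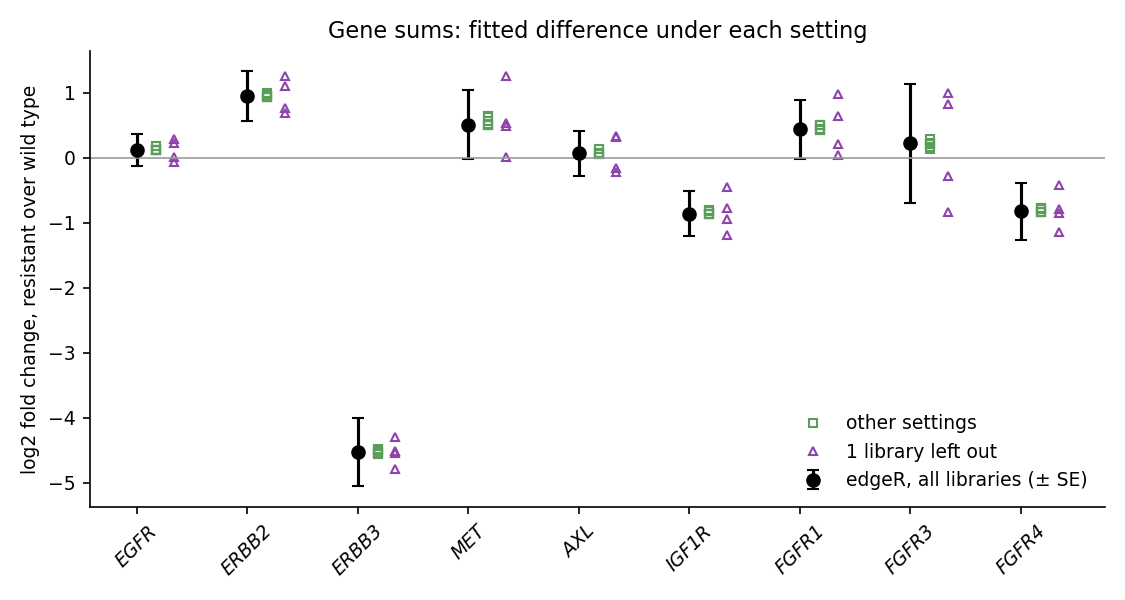
Fitted log2 fold change of each tested receptor gene sum, resistant over wild type (vertical axis), with its SE for all libraries (black) and the values under other settings (green squares) and with 1 library left out (purple triangles). *ERBB3* lies between -4.79 and -4.30 in the runs that leave out a library, and the triangles of *EGFR*, *AXL* and *FGFR3* fall on both sides of 0.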

How the data were processed

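Per the labels, total RNA was sequenced as paired-end Illumina libraries, 2 of oxaliplatin-resistant and 2 of wild-type HepG2 cells. The values, as the authors deposited them, are estimated counts for each transcript, whole numbers that are not scaled between libraries. The sources used here name no aligner, counter or annotation, and the submitters' processing notes name mm9, a mouse build, although 103347 of the 106179 identifiers are human Ensembl transcripts. Of these, 84072 had a gene in GENCODE release 29 (GRCh38); the other 19275 and 2832 identifiers of another kind were not assigned to a gene, so further transcripts of the receptors may be among them. Counts were tested as deposited, per transcript and summed per gene, with edgeR 4.0.16 in R 4.3.3 (quasi-likelihood, TMM, expression filter at a minimum count of 10, two-sided, Benjamini-Hochberg, threshold 0.05), and SE was taken as the log2 fold change over the root of the test's F. CPM is relative to the counts of the tested features, separately for transcripts and genes. The members, gene lists and tests were chosen with earlier results of these data known. Named were all member genes and, of their transcripts, the 3 of highest mean per gene, those at 0 in both libraries of one group with at least 100 counts in each of the other, and any at 0 in one and over 1000 in the other library of a group (none was); from each list, members past the threshold or otherwise the 2 of highest mean. Libraries differed beyond sampling noise (chi-square per transcript 240.3 to 300.1 between pairs) and all were kept. Alternatives were DESeq2 1.42.0, limma-voom (limma 3.58.1), other scaling and filters, a replicate block and leaving out each library. Figures were made with matplotlib 3.10.9 in Python 3.11.15. A further gene of the pathway lists is counted in the list totals and is not reported here.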

Additional observations from a re-analysis of the deposited data

How the results depend on the processing

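edgeR called 0 gene sums and 0 transcripts under every setting it was run with, including the 4 runs that leave out a library (0 to 0 at both levels, with the lone library of a group assumed to vary like the others). The single limma-voom fit at each level also called 0. DESeq2 called 632 gene sums and 2261 transcripts, where the edgeR test had 1192 and 3283 at an unadjusted p under 0.05. The labels number the libraries 1 and 2 in both groups. The replicate differences of the groups had a correlation across genes of -0.019, and the numbers are not stated to pair the samples. With the replicate number as a block, edgeR called 0 gene sums and 0 transcripts, and 781 genes had an unadjusted p under 0.05. Of the 9 member gene sums, 6 kept their direction in every setting, and of the 21 named transcripts 12 did. Leaving out a library turned *EGFR* (-0.066 to 0.29), *AXL* (-0.22 to 0.34) and *FGFR3* (-0.84 to 0.998) on the log2 scale. It also turned EGFR-208 (-0.046 to 0.26), EGFR-209 (-0.065 to 0.32), EGFR-210 (-0.084 to 0.058), ERBB2-222 (-0.13 to 6.26), AXL-204 (-1.03 to 1.69), AXL-205 (-0.22 to 0.36), FGFR1-205 (-2.91 to 0.28), FGFR3-207 (-0.86 to 0.85) and FGFR4-211 (-1.23 to 0.015). Scaling by library totals alone, which gave a median log2 fold change of 0.14 over all transcripts, against 0.02 with TMM, turned EGFR-210 to 0.11. The causes were not tested. Shares of retained-intron and processed transcripts alone equalled the shares given, since the members hold no other class. All planned settings were run, and a transcript below the filter of a setting has no value there.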

Other observations

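Outside the 10 receptor genes and the ligands, 4 genes of the pathway lists with an unadjusted p under 0.05 in edgeR are named here, after their values were seen. None passed adjustment. *CBLB*, a ubiquitin ligase gene of receptor turnover, had 1990 and 1866 counts in resistant cells against 623 and 391 in wild type, at 52.0 ± 1.39 and 17.7 ± 4.74 CPM (SD, n = 2 libraries each; edgeR adjusted p = 0.393). *SPRED2*, an inhibitor of the RAS-MAPK route, had 649 and 616 against 1120 and 1291 counts, at 17.1 ± 0.309 and 42.6 ± 6.75 CPM (edgeR adjusted p = 0.393). *PDGFRB*, a receptor kinase gene of mesenchymal cells that is also in the fibroblast marker list, had 44 and 11 counts against 106 and 160 (edgeR adjusted p = 0.556). *NEDD4L*, whose values are given above, is the other one. As for the receptors, these are sums of counts assigned to noncoding transcripts, which can share exons with the mRNAs.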
